A study of Mus musculus with 9 samples.

Results

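Hepatic stellate cells and pericytes are the contractile, vessel-hugging support cells of the liver, and 10 genes known to be expressed in them are described here across 9 mouse arrays. The genes are Dcn, Lum, Hgf, Lrat, Reln, Des, Rgs5, Pdgfrb, Ngfr and Hand2. They were chosen by name, as genes known for these cell types, with earlier results of these data known, and each of the 10 was found among the 19938 genes measured, with 1 probe set per gene.

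Stellate cells lie in the space between the sinusoidal endothelium and the hepatocytes, where they store vitamin A as retinyl esters, secrete growth factors for hepatocytes and make extracellular matrix. Pericytes wrap capillaries and small vessels elsewhere and share with stellate cells the receptor for platelet-derived growth factor B, which endothelial cells release to recruit them. After injury stellate cells lose their retinoid stores and turn into myofibroblasts, the main source of scar collagen.

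The first group, WT liver, is liver of 3 C57Bl/6 mice with loxP-flanked Notch1 (Notch1 lox/lox) and no Cre. KO liver is liver of 3 C57Bl/6 mice with the same Notch1 lox/lox allele and MxCre, a Cre recombinase under an interferon-inducible promoter that is not restricted to a cell type. All livers had received the interferon inducer poly(I:C), at 300 µg on days 0, 3 and 6 from an age of 4 weeks, and the exon that Cre removes codes for the signal peptide. The AS cell line group holds 3 separately derived angiosarcoma cell lines, each kept in long-term culture after endothelial cells were taken from knockout livers with visible tumours. WT livers carry no Cre, so the effects of MxCre and of Notch1 deletion cannot be told apart. Lines and livers differ in disease, in culture and in the cells they started from, and lines and WT livers in genotype as well. These cannot be told apart in the comparisons with the lines. Livers were snap-frozen, but the extraction protocol given for all arrays names PHH, an abbreviation it does not explain, so the material extracted is not fully settled.

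Expression is given as log2 units after robust multi-array averaging, and a difference of 1 is a 2-fold change. Array medians ran from 6.53 to 6.63. As a guide to low values, the middle 90% of 1027 olfactory receptor genes, which liver is not known to use, lay between 3.90 and 6.39 at the widest over the 9 arrays. The table holds no detection calls, so a value in that range may be background, and a fold change against it then understates the difference. Notch1 read 11.69, 11.02 and 11.71 in the WT livers, 7.84, 8.75 and 8.52 in the KO livers and 8.75, 8.61 and 7.83 in the lines. Every KO liver thus lay below every WT liver, by 3.10 log2 units on average (SE 0.302), although the difference did not pass the adjusted threshold of 0.05 (adjusted p = 0.0995, limma). Of the 18 pan-endothelial marker genes, all 18 were lower in the lines than in KO liver, and Cdh5, the cadherin of endothelial junctions, fell by 7.38 to a mean of 5.52. The lines are labelled as endothelial in origin, and these markers were low in them. Such levels describe the lines as cultured, and their origin was not tested.

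In the lines, 9 of the 10 genes lay below all 6 livers, where 13.3% of all genes did. The drop was steepest for the matrix proteoglycan Dcn and the growth factor Hgf. Between KO and WT liver none of the 10 passed the test, and 0 of all 19938 genes did.

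**Figure D1:**
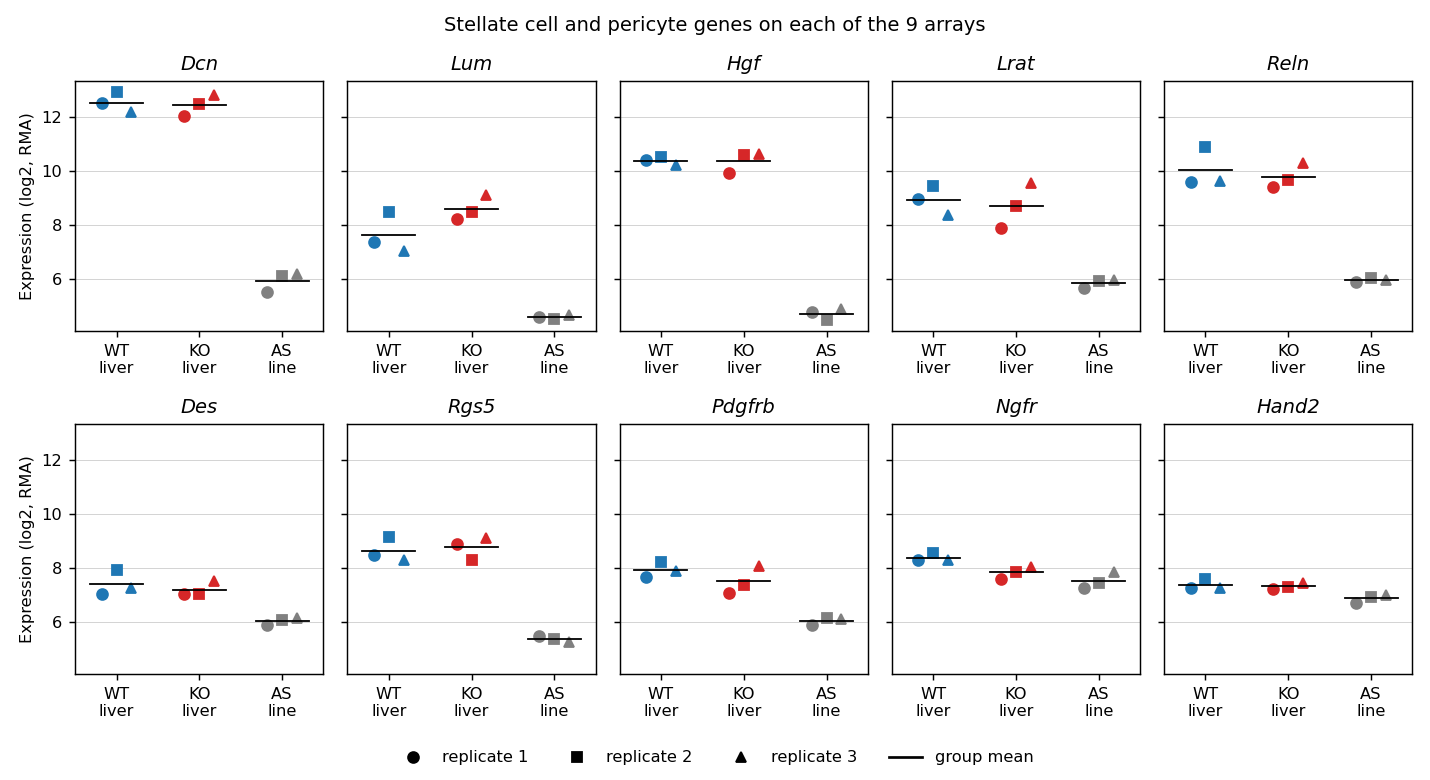
Expression (log2) of the 10 genes on each of the 9 arrays, with a panel per gene, colours for the groups, marker shapes for the replicates and a line at the group mean. The AS cell lines lie below all livers in 9 panels; in the Ngfr panel the highest line reads 7.83 and the lowest KO liver 7.61.

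Dcn encodes decorin, a small proteoglycan that coats collagen fibrils and binds transforming growth factor beta. It read 12.50, 12.89 and 12.16 in the WT livers and 12.01, 12.46 and 12.79 in the KO livers, and these ranges overlapped. The lines read 5.52, 6.10 and 6.17, where the 95th percentile of the olfactory receptor genes on the same arrays was 5.78, 5.90 and 5.99. The first line thus lay within the low range and the other two just above it. Dcn was 89.9-fold lower in the lines than in KO liver (log2 difference -6.49, SE 0.269, adjusted p = 1.52e-04, limma). Against WT liver the difference was -6.59 (SE 0.256, adjusted p = 5.16e-05). KO and WT liver differed by -0.10, with a 95% interval from -0.76 to 0.56.

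Lum encodes lumican, a related keratan sulphate proteoglycan that regulates collagen fibril thickness. WT livers read 7.36, 8.48 and 7.01 and KO livers 8.19, 8.48 and 9.09. KO replicate 1 lay below WT replicate 2 and KO replicate 2 level with it to 2 decimals, so the liver groups overlapped, while the KO mean was higher by 0.97 (SE 0.437, 95% interval -0.11 to 2.06, adjusted p = 0.258). Among the 10 genes this was the widest gap between liver means. In the lines Lum read 4.59, 4.50 and 4.67, which is 16.0-fold below KO liver (log2 difference -4.00, SE 0.238, adjusted p = 4.60e-04) and 8.17-fold below WT liver (-3.03, SE 0.380, adjusted p = 0.00315).

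Dcn, Lum, Kera and Epyc follow one another among the protein-coding genes of the RefSeq gene order. Kera and Epyc, which encode keratocan and epiphycan of cornea and cartilage, were looked at for this position and fall outside the rule for named genes. Kera ranged from 4.72 to 4.88 over the 9 arrays and Epyc from 4.79 to 4.90, both within the range of the olfactory receptor genes in livers and lines alike. The adjusted p between lines and KO liver was 0.677 for Kera and 0.627 for Epyc. Of the 12 small leucine-rich proteoglycan genes besides Dcn and Lum, 4 were lower and 0 higher in the lines than in KO liver. Bgn, which encodes biglycan, read 12.28 to 12.61 in KO liver and 5.51 to 6.85 in the lines, a difference of -6.41 (SE 0.377, adjusted p = 4.44e-04). Prelp, a basement membrane proteoglycan, differed by -3.58 (SE 0.310, adjusted p = 0.00156). Against WT liver 4 of the 12 were lower as well, with Bgn at -6.48 (adjusted p = 1.86e-04) and Prelp at -4.37 (adjusted p = 2.73e-04).

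Hgf encodes hepatocyte growth factor, which stellate cells secrete and hepatocytes sense through the receptor MET. Its liver values were close together, at 10.38, 10.50 and 10.21 in WT and 9.91, 10.57 and 10.60 in KO. The liver groups overlapped and their means differed by 0.00, with a 95% interval from -0.52 to 0.52. The lines read 4.76, 4.48 and 4.90, 5.01 log2 units below the lowest liver at the least. The difference was -5.65 against KO liver (SE 0.229, adjusted p = 1.43e-04, 50.2-fold) and -5.65 against WT liver (SE 0.143, adjusted p = 1.44e-05, 50.1-fold).

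The receptor gene Met went the other way in the lines. Met read 10.84, 9.53 and 10.14 there, against 6.07, 8.61 and 5.47 in KO liver and 6.36, 8.16 and 8.19 in WT liver, so no line overlapped a liver. It was higher in the lines by 3.45 over KO liver (SE 0.892, adjusted p = 0.0481) and by 2.60 over WT liver (SE 0.601, adjusted p = 0.0257). The spread of Met among livers was wide, and KO replicate 2, its highest liver, was also highest in that group for 17 of 17 hepatocyte markers. Of the 12 HGF and MET genes besides Hgf, 4 were higher and 3 lower in the lines than in KO liver, and 3 were higher and 3 lower than in WT liver. Of all 19938 genes, 2268 were called higher and 2007 lower than in KO liver, and 3506 higher and 2209 lower than in WT liver. The same totals stand beside the counts of each other list. The plasminogen activators, proteases that can activate pro-HGF, moved apart: Plat was higher by 4.18 over KO liver (SE 0.248, adjusted p = 4.60e-04). Plau was lower, with a difference of -3.99 (SE 0.487, adjusted p = 0.00482). Plau read 10.18 to 11.47 in KO and 8.27 to 9.07 in WT liver, without overlap, but did not pass between them (adjusted p = 0.0995).

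Reln encodes reelin, a large secreted glycoprotein best known for guiding neurons, which stellate cells also make. WT replicate 2 stood highest at 10.89, with 9.60 and 9.61 in the other WT livers, and KO livers read 9.40, 9.65 and 10.29. The liver groups overlapped (difference -0.25, 95% interval -1.31 to 0.81). The lines read 5.88, 6.05 and 5.96, with a difference of -3.82 from KO liver (SE 0.237, adjusted p = 5.34e-04, 14.1-fold) and of -4.07 from WT liver (SE 0.367, adjusted p = 0.00103, 16.8-fold).

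Both lipoprotein receptors that bind reelin were higher in the lines. Vldlr read 9.36, 10.24 and 8.89 in the lines and 6.19, 6.38 and 5.31 in KO liver, a difference of 3.54 (SE 0.448, adjusted p = 0.00541). The other receptor gene, Lrp8, rose by 1.83 over KO liver (SE 0.387, adjusted p = 0.0264) and by 1.36 over WT liver (adjusted p = 0.0463). Adamts4, a protease that cleaves reelin, was lower than in KO liver by -3.43 (SE 0.201, adjusted p = 4.44e-04). Of the 10 reelin pathway genes besides Reln, 3 were higher and 4 lower in the lines in each of the comparisons, which share the arrays of the lines.

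Lrat encodes lecithin retinol acyltransferase, the enzyme that esterifies retinol for storage and a defining gene of stellate cells. It varied more among KO livers, at 7.87, 8.70 and 9.56, than among WT livers, at 8.93, 9.44 and 8.35. The KO range enclosed the whole WT range, and the means differed by -0.20 (95% interval -1.42 to 1.02), the widest interval of the 10 genes. The lines read 5.67, 5.93 and 5.95. They were lower, with a difference of -2.86 from KO liver (SE 0.432, adjusted p = 0.00929, 7.27-fold) and of -3.06 from WT liver (SE 0.283, adjusted p = 0.00112, 8.34-fold).

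Of the other 19 retinoid genes measured, 2 were higher and 2 lower in the lines than in KO liver. Aldh1a1, which oxidises retinal to retinoic acid, rose by 3.79 (SE 0.954, adjusted p = 0.0449). Cyp26b1, which clears retinoic acid, fell by 2.75 (SE 0.635, adjusted p = 0.0347). Against WT liver Aldh1a1 was higher by 1.91 (adjusted p = 0.0437) and Cyp26b1 lower, with a difference of -2.94 (adjusted p = 0.00110). Aldh1a1 is also a hepatocyte gene, and among the KO livers it ranged from 7.63 to 11.14 with its highest value in replicate 2.

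Des encodes desmin, the intermediate filament of muscle that rodent stellate cells and pericytes share. WT livers read 7.04, 7.93 and 7.25 and KO livers 7.04, 7.04 and 7.51. WT replicate 2 and KO replicate 3 were again the highest of their groups, and the groups overlapped (difference -0.21, 95% interval -0.87 to 0.45). The lines read 5.88, 6.09 and 6.14, below each liver, and were lower, with a difference of -1.16 from KO liver (SE 0.163, adjusted p = 0.00755, 2.23-fold) and of -1.37 from WT liver (SE 0.244, adjusted p = 0.0107, 2.58-fold). Vim, the filament gene of mesenchymal cells in general, was looked at after its values were seen and read 12.87 to 13.47 over all 9 arrays.

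Rgs5 encodes a regulator of G protein signalling that marks pericytes. It was the 1 gene of the 10 whose lowest KO liver was replicate 2: KO livers read 8.88, 8.30 and 9.09, and WT livers 8.49, 9.15 and 8.29. The groups overlapped (difference 0.11, 95% interval -0.63 to 0.86). In the lines Rgs5 read 5.48, 5.35 and 5.26, with a difference of -3.39 from KO liver (SE 0.219, adjusted p = 5.98e-04, 10.5-fold) and of -3.28 from WT liver (SE 0.234, adjusted p = 4.57e-04, 9.71-fold). Rgs4, the next protein-coding gene and of the same family, read 5.61 to 6.56 over all arrays, and its adjusted p against KO liver was 0.537. Of the 8 R4 family genes besides Rgs5, 3 were lower and 0 higher in the lines than in KO liver. The widest of these was Rgs1, a gene of leukocytes, at -6.25 (SE 0.152, adjusted p = 3.57e-05).

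The promoter windows of Des, Rgs5, Ngfr and Hand2 are printed because they hold 1 of the 2 E-boxes searched, CAGCTG in the first 3 and CATCTG in Hand2. E-boxes are the short sites bound by basic helix-loop-helix factors, the class to which Hand2 belongs. Promoter windows from RefSeq (GRCm38.p6), from 250 bases before to 50 after a transcription start, were used for 7 of the 10 genes, in 8 windows. No window was used for Dcn, Lum or Pdgfrb. Both strands were searched for the E-boxes CAGCTG, which reads the same on both strands, and CATCTG, for the TATA box TATAAA and for the CArG box of muscle genes. The capitals mark the E-box, and each sequence runs 5′ to 3′ along the gene's own strand. Des lies at chr1:75360042-75360341 (+ strand), Rgs5 at chr1:169655251-169655550 (+ strand), Ngfr at chr11:95587649-95587948 (- strand) and Hand2 at chr8:57320733-57321032 (+ strand).
Des: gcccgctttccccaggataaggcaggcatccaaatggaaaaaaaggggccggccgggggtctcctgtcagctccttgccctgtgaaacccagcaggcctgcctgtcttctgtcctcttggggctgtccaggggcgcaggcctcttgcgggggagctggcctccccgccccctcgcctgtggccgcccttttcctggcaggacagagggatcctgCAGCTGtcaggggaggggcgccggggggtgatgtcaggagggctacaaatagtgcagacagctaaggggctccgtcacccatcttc
Rgs5: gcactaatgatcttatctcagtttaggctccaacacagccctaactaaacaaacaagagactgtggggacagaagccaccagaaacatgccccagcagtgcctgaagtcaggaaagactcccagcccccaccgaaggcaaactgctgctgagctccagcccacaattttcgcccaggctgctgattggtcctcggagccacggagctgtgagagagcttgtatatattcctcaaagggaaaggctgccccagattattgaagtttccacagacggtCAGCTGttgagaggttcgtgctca
Ngfr: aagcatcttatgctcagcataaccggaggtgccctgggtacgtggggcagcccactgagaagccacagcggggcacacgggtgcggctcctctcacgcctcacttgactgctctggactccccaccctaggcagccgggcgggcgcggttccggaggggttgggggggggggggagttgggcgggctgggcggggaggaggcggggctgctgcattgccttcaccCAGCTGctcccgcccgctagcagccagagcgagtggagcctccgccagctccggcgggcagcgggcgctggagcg
Hand2: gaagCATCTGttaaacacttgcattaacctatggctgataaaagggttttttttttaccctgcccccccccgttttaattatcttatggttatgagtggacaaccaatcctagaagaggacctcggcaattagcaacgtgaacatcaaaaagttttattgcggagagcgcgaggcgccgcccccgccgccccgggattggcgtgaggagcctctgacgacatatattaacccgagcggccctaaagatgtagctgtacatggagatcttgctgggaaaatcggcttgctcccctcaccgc
CAGCTG began at base -36 from the start site in Des, at base 26 in Rgs5 and at base -25 in Ngfr, and CATCTG at base -246 in Hand2. Over 32851 windows of this length, 16.3% held CAGCTG and 17.2% held CATCTG, so a match in 3 and in 1 of 7 genes is a description and not a site. The Hgf, Lrat and Reln windows held neither E-box, and none of the 8 windows held TATAAA (13.6% of all windows) or a CArG box (1.63%). The windows differed most in CpG count: Reln held 47 CpG in 300 bases, more than 98.6% of all windows, against 6 in Rgs5 and a median of 7.

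Pdgfrb encodes the beta receptor for platelet-derived growth factor. WT livers read 7.66, 8.21 and 7.88 and KO livers 7.08, 7.38 and 8.07. KO replicates 1 and 2 lay below all WT livers, while KO replicate 3 lay among them, and the difference was -0.41 (95% interval -1.12 to 0.30, adjusted p = 0.420). The lines read 5.90, 6.13 and 6.12. Pdgfrb was lower there, with a difference of -1.45 from KO liver (SE 0.267, adjusted p = 0.0171, 2.74-fold) and of -1.86 from WT liver (SE 0.163, adjusted p = 9.18e-04, 3.64-fold). The call against KO liver was lost without AS replicate 1, at an adjusted p of 0.0515, and with array weights, at 0.0675.

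Of the 6 other PDGF genes, 1 was higher and 1 lower in the lines than in KO liver. Pdgfra, the alpha receptor of fibroblasts, was lower, with a difference of -1.33 (SE 0.174, adjusted p = 0.00597), and Pdgfa, a ligand, higher by 1.14 (SE 0.280, adjusted p = 0.0418). Pdgfb, the ligand that endothelial cells use to attract pericytes, was higher in the lines than in WT liver by 1.40 (SE 0.180, adjusted p = 0.00350). Its KO livers spread from 7.99 to 9.55, and against them it did not pass (adjusted p = 0.389).

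Ngfr encodes p75, the low-affinity neurotrophin receptor found on stellate cells. It was the 1 gene of the 10 whose liver groups did not overlap. WT livers read 8.30, 8.55 and 8.29 and KO livers 7.61, 7.86 and 8.03, so every KO liver lay below every WT liver. KO liver was lower, with a difference of -0.55 (SE 0.136, 95% interval -0.89 to -0.21) at an unadjusted p of 0.00765 and an adjusted p of 0.118, which does not pass. In this comparison 11.1% of all genes had KO arrays wholly below WT arrays, and 1 of 10 members is near that share.

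In the lines Ngfr read 7.25, 7.44 and 7.83 and overlapped the KO livers. Against KO liver the difference of -0.32 did not pass (SE 0.190, 95% interval -0.80 to 0.16, adjusted p = 0.307). The lines were lower than WT liver, with a difference of -0.87 (SE 0.174, adjusted p = 0.0158, 1.83-fold), a call that was lost without WT replicate 2, at an adjusted p of 0.0648, and without WT replicate 3, at 0.0511. Of the 8 other neurotrophin genes measured, 2 were higher and 0 lower in the lines than in KO liver. These were Bex3, an adaptor that binds the p75 receptor, at 2.45 (SE 0.249, adjusted p = 0.00271), and Sort1, its co-receptor sortilin, at 1.10 (SE 0.134, adjusted p = 0.00481). Both were also higher than in WT liver, Bex3 by 2.45 and Sort1 by 1.27.

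Hand2 encodes a basic helix-loop-helix factor of heart and mesenchyme that is also expressed in quiescent stellate cells. Its range was narrow: WT livers read 7.24, 7.59 and 7.25, KO livers 7.24, 7.29 and 7.44, and the lines 6.69, 6.91 and 7.00. The livers overlapped (difference -0.04, 95% interval -0.34 to 0.26), and the lines lay 0.24 below the lowest liver. The difference of -0.45 against KO liver passed narrowly (SE 0.110, adjusted p = 0.0404), and -0.49 against WT liver did not (SE 0.141, adjusted p = 0.0502). The first call was lost under 5 of the other ways of processing and without 5 of the 6 arrays in turn, with adjusted p-values up to 0.134. The second passed with all 9 arrays in 1 fit, at 0.0202, and with scaling to the 75th percentile, at 0.0322.

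Of 14 other mesenchymal transcription factor genes, 6 were lower and 2 higher in the lines than in KO liver. Gata4, which restrains stellate cell activation and is also strong in sinusoidal endothelium, was lower, with a difference of -3.19 (SE 0.232, adjusted p = 8.76e-04). Tbx2 was lower, with a difference of -2.72 (SE 0.171, adjusted p = 5.54e-04). Gata6 went the other way, at 10.67 to 11.25 in the lines and 8.43 to 9.23 in KO liver (difference 2.17, SE 0.261, adjusted p = 0.00459).

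Counted over the 10 genes, the lines were lower than KO liver for 9, where 10.1% of all 19938 genes were called lower, and the median difference was -3.13 beside 0.05 over all genes. Against WT liver 9 of 10 were called lower as well, where 11.1% of all genes were, and the median was -3.05 beside 0.02. By non-overlap alone, the lines lay below KO liver for 9 of 10 genes (16.7% of all genes) and below WT liver for 10 of 10 (19.5%). Below all 6 livers they lay for 9 of 10, against 13.3% of all genes, with Ngfr the exception. The gap between the lowest liver and the highest line was 5.84 for Dcn, 5.01 for Hgf, 3.36 for Reln, 2.81 for Rgs5, 2.34 for Lum, 1.92 for Lrat, 0.95 for Pdgfrb, 0.89 for Des and 0.24 for Hand2. Both comparisons use the same 3 arrays of the lines. In the lines Dcn, Lum, Hgf, Lrat, Reln, Des, Rgs5 and Pdgfrb read within the widest range of the olfactory receptor genes, 3.90 to 6.39. Their values there may be background, while Ngfr and Hand2 read above that range.

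**Figure D2:**
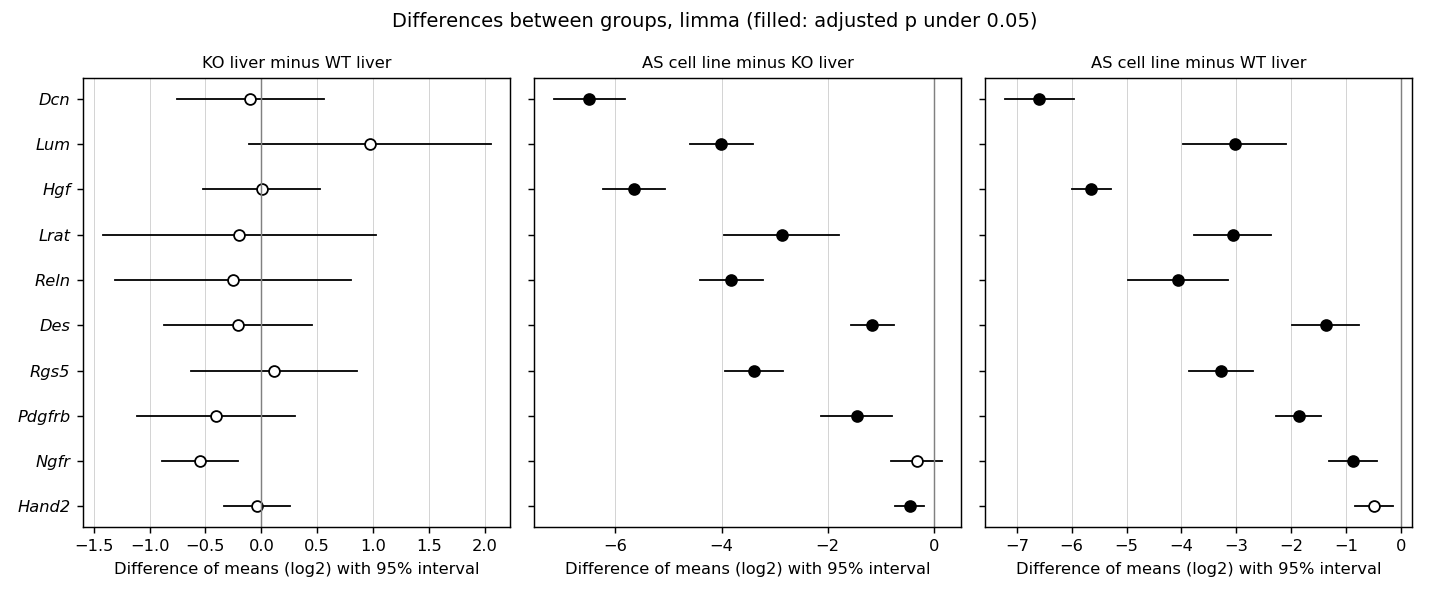
Differences of group means (log2) for the 10 genes in the 3 comparisons, with 95% intervals from limma and filled points where the adjusted p is under 0.05. Each interval between the livers except that of Ngfr spans 0, while against the lines the differences run from -6.59 for Dcn to -0.32 for Ngfr.

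Between KO and WT liver 0 of 10 genes passed by limma, and 1 of 10, Ngfr, had an unadjusted p under 0.05. Over all 19938 genes 0% passed, with 4479 genes at an unadjusted p under 0.05, of which 3449 were higher and 1030 lower in KO liver. Of the 10 genes, 7 had a lower and 3 a higher mean in KO liver, where 50.2% of all genes had a lower one. The median difference of the 10 was -0.15 beside -0.00 over all genes. That median was 0.07 without WT replicate 2 and 0.03 without KO replicate 1, so its sign rests on single arrays. With limma array weights Ngfr passed (difference -0.67, adjusted p = 0.0213), and so did 5744 of all genes.

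The 10 genes shared the highest liver of each genotype. WT replicate 2 was the highest WT array for 10 of 10 genes, a position it held for 32.7% of all genes. KO replicate 3 was the highest KO array for 10 of 10, against 33.4% of all genes, and KO replicate 1 the lowest for 9 of 10, against 29.3%. The lowest WT array was not shared: it was replicate 3 for 6 genes and replicate 1 for 4, against 30.7% and 46.4% of all genes. The mean over the 10 genes was 8.75, 9.36 and 8.63 in the WT livers and 8.52, 8.77 and 9.25 in the KO livers. The highest and lowest liver of a genotype thus differed by more than the genotypes did. The same arrays led among 21 other stellate cell markers measured, with WT replicate 2 highest for 18, KO replicate 3 highest for 16 and KO replicate 1 lowest for 17. Among 14 other pericyte markers the KO order differed. There KO replicate 1 was highest for 7 and lowest for 1, and KO replicate 2 was lowest for 11. KO replicate 2 was also lowest for 12 of 16 activated stellate genes and for 10 of 13 smooth muscle markers. It was the lowest KO array for 46.5% of all genes. WT replicate 2 was highest for 9 of 14, 8 of 16 and 8 of 13 in these lists.

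Some marker lists of other cell types shared parts of the order of the 10 genes and others did not. The mean of the 17 hepatocyte markers was 11.57, 12.66 and 12.58 in the WT livers and 10.64, 12.68 and 9.41 in the KO livers, so KO replicate 3 was lowest for 17 of 17, while WT replicate 2 was highest for 10. The 13 Kupffer cell and macrophage markers averaged 11.76, 11.27 and 11.17 in WT and 11.22, 11.86 and 11.24 in KO. The 18 pan-endothelial markers averaged 11.45, 11.33 and 11.35 in WT and 11.83, 11.36 and 11.84 in KO. The 12 T and NK cell markers averaged 6.57, 8.79 and 8.65 in WT and 6.74, 6.79 and 6.94 in KO. Their means had the KO order of the 10 genes, with KO replicate 3 highest for 7 of 12, KO replicate 1 lowest for 8 and WT replicate 2 highest for 8. In bulk RNA, fewer cells of a type and less RNA per cell cannot be told apart, and the part of these cell types in the spread of the 10 genes was not tested.

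**Figure D3:**
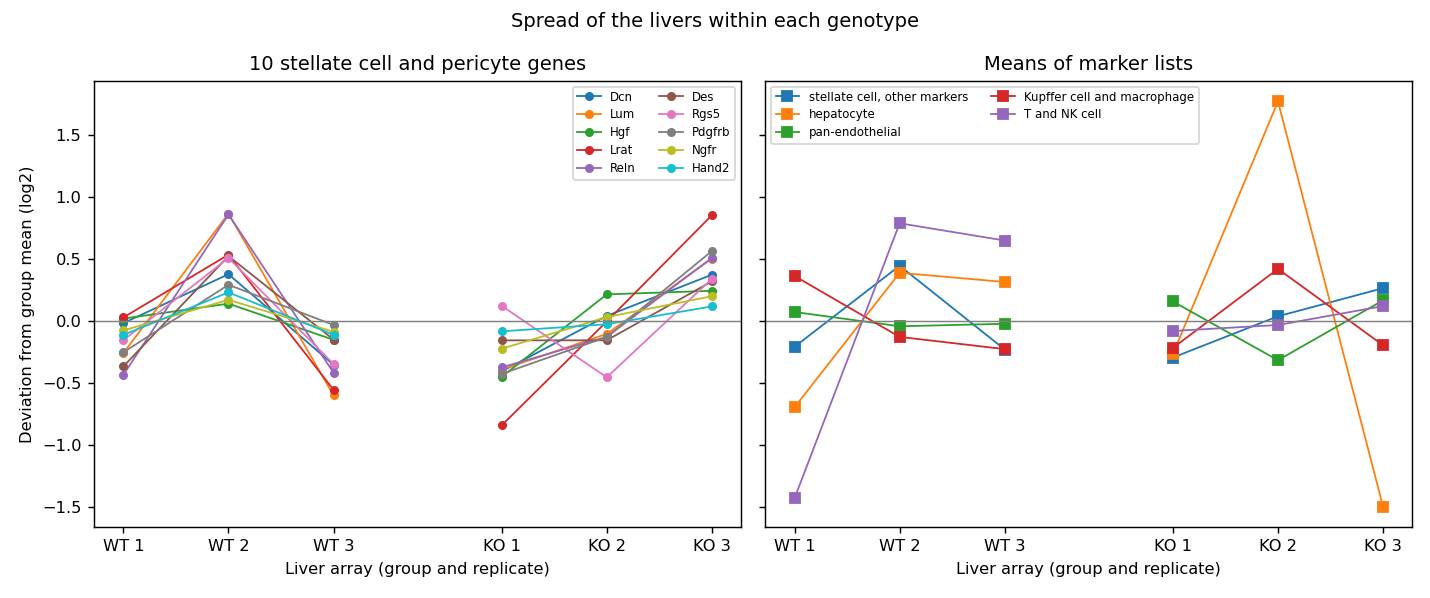
Deviation of each liver array from the mean of its genotype (log2), on the left for the 10 genes and on the right for the means of 5 marker lists. Lines join the values of a gene or list and carry no order. WT replicate 2 and KO replicate 3 lie above 0 for all 10 genes, while the hepatocyte mean is lowest in WT replicate 1 and KO replicate 3.

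Most other stellate cell markers were lower in the lines too. Of 21 measured, 15 were lower, 0 higher and 6 not past the threshold against KO liver, with a median of -1.12. Against WT liver 16 were lower and 0 higher, with a median of -1.49. Agtr1a, the angiotensin II receptor, fell by 3.19 against KO liver (SE 0.470, adjusted p = 0.00867). Col14a1, a collagen that binds fibril surfaces, fell by 3.09 (SE 0.219, adjusted p = 7.97e-04). Gfap, a glial filament used to mark stellate cells, read 5.14 to 5.75 over the arrays, within the range of the olfactory receptor genes.

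Of 14 other pericyte markers, 4 were lower and 10 did not pass against KO liver, with a median of -0.12. Abcc9, the regulatory subunit of a pericyte potassium channel, differed by -4.69 (SE 0.450, adjusted p = 0.00225). Its channel partner Kcnj8 differed by -2.71 (SE 0.562, adjusted p = 0.0249), and the adhesion molecule Mcam, which endothelium also expresses, by -3.34 (SE 0.539, adjusted p = 0.0115). Cspg4, the gene of the pericyte surface proteoglycan NG2, read 5.82 to 6.27 over all 9 arrays and was looked at after its values were seen.

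Genes of activated stellate cells did not share 1 direction. Of 16 measured, 4 were lower and 1 higher in the lines than in KO liver, with a median of -0.42. Tgfbi, a matrix protein induced by transforming growth factor beta, differed by -5.03 (SE 0.125, adjusted p = 3.61e-05), and Postn, the matricellular protein periostin, by -3.49 (SE 0.220, adjusted p = 5.54e-04). Timp1, an inhibitor of matrix metalloproteinases, was higher by 2.67 (SE 0.427, adjusted p = 0.0112). Of 12 portal fibroblast markers 2 were lower and 2 higher, with Fbln2 at 3.80 (SE 0.669, adjusted p = 0.0150) and Cd34, which endothelium also carries, at -3.56 (SE 0.481, adjusted p = 0.00660). Of 13 smooth muscle markers 0 passed by limma against KO liver, with 1 at an unadjusted p under 0.05.

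Endothelial and macrophage markers were also lower in the lines, and hepatocyte markers only in part. Against KO liver 18 of 18 pan-endothelial, 11 of 11 sinusoidal endothelial and 13 of 13 Kupffer cell and macrophage markers were lower. Their medians were -4.73, -6.78 and -5.33. Of 17 hepatocyte markers 5 were lower and 12 did not pass, with differences from -6.70 to 1.34. The pan-endothelial mean ran from 11.36 to 11.84 in KO liver and from 6.44 to 6.78 in the lines. By contrast 4 of 12 mesothelial and 4 of 9 cholangiocyte markers were higher and 0 of either lower, with Krt19 counted in both. Of all 19938 genes, 2268 were called higher in this comparison. Msln, the mesothelial surface protein mesothelin, was higher by 5.88 (SE 0.211, adjusted p = 9.98e-05). The part of these cell types in the differences of the 10 genes was not tested.

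Between KO and WT liver 0 of the 21 other stellate markers passed by limma, with 7 at an unadjusted p under 0.05. Of these 21, 8 lay wholly lower in KO liver and 1 wholly higher, where 11.1% and 19.2% of all genes did, and the median was -0.61. Leaving out WT replicate 2 brought this median to -0.33, and leaving out KO replicate 1 to -0.34. Among them, Colec10, a secreted collectin, read 7.30 to 8.71 in KO and 8.95 to 10.15 in WT liver (difference -1.41, adjusted p = 0.168). Pth1r, a parathyroid hormone receptor, read 7.22 to 7.63 and 8.13 to 9.30 (difference -1.12, adjusted p = 0.140). Nes, the filament nestin, lay wholly higher, at 8.06 to 9.45 in KO and 7.00 to 7.32 in WT liver (difference 1.70, adjusted p = 0.105). Of the 14 other pericyte markers 0 passed by limma between the livers, and their median was -0.03. In KO liver 2 of the 14 lay wholly lower and 1, Mcam, wholly higher (difference 1.03, adjusted p = 0.212). Abcc9 differed by 1.31 (adjusted p = 0.221) and Anpep by -0.77 (adjusted p = 0.593), both with overlapping arrays.

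Of the 16 activated stellate genes, 14 had a higher mean in KO liver, where 50.2% of all genes had a lower one. Wholly higher in KO liver were 2 of the 16, against 19.2% of all genes. By limma 0 passed and 2 had an unadjusted p under 0.05, and the median difference of the list between the livers was 0.24. Leaving out KO replicate 3 brought this median to 0.13, leaving out WT replicate 3 to 0.16 and leaving out KO replicate 2 to 0.35. The widest difference of the list was a lower mean in KO liver, that of Fn1. Fn1 read 10.54, 12.80 and 9.54 in KO and 10.97, 12.32 and 12.52 in WT liver (difference -0.98, adjusted p = 0.529). Mmp2, a gelatinase, read 7.99, 8.70 and 9.46 in KO and 8.07, 8.28 and 7.63 in WT liver (difference 0.72, adjusted p = 0.330). Tagln, a contractile protein gene, differed by 0.69 (adjusted p = 0.271) with overlapping arrays. Between the same groups 13 proliferation markers had a median of 1.53, with 11 wholly higher in KO liver, and 17 hepatocyte markers a median of -1.23, though 0 of either list passed. Their part in these differences was not tested.

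**Figure D4:**
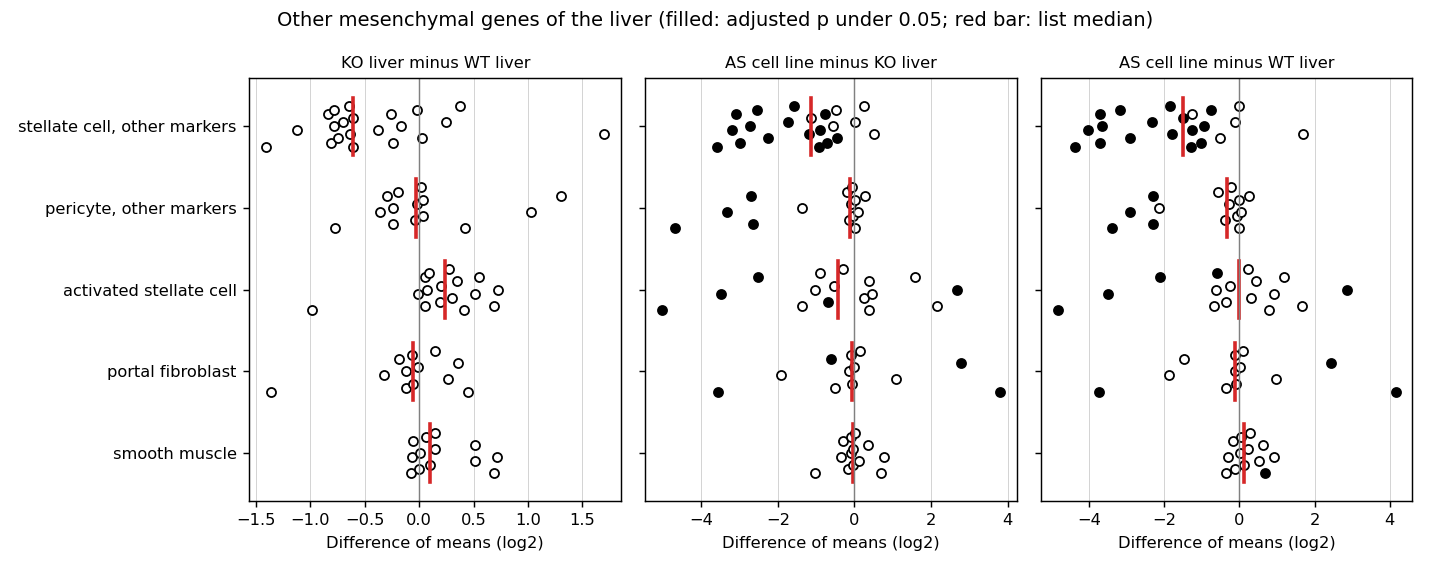
Differences of group means (log2) for other mesenchymal marker genes of the liver in the 3 comparisons, with a point per gene, filled where the adjusted p is under 0.05, and a red bar at the list median. The stellate cell list has medians of -0.61, -1.12 and -1.49 from left to right, and filled points appear against the lines only.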

How the data were processed

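Each of the 9 arrays was taken as 1 replicate: 3 mice per liver group and 3 lines. The deposited values are log2 per probe set, from RMA in the oligo package per the submitters' processing notes. Tool versions and the genome build: not given in the sources used here. RMA normalizes arrays together, so a shift of most genes one way cannot be seen. Of 35556 probe sets, 21789 had 1 gene in the platform annotation, 1621 several and 12146 none. Where a gene had several probe sets (999 genes), the one with the highest mean was used. For each pair of groups, limma 3.58.1 was run in R 4.3.3 on the 6 arrays (lmFit, eBayes, 2-sided tests, no covariates), with Benjamini-Hochberg adjustment over 19938 genes and a threshold of 0.05. Non-overlap means that all arrays of a group lie beyond all of the other. The procedure was tested on simulated data with noise drawn for each gene on its own, so deviations that genes share on an array were not simulated. The 10 genes and the 23 marker lists (21 of 315 entries not measured) were chosen with earlier results of these data known. Named list genes are the 3 of largest difference among those that passed, or among all where none did. Alternatives were a replicate block, 1 fit of 9 arrays, trend and robust variances, a filter on dim genes, 75th percentile scaling, repeated quantile normalization, the mean of probe sets, array weights, leaving out each array, at least 2-fold change and an adjusted p under 0.10. List medians without each liver array were added after seeing the data. Same-numbered arrays deviated together in some pairs and apart in others (KO with WT liver: r = 0.31, 0.43 and -0.39), so numbers were not taken as pairs. With 3 arrays per group, the number of arrays limits the precision. Figures were drawn with matplotlib 3.10.9.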

Additional observations from a re-analysis of the deposited data

How the results depend on the processing

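Directions of the 10 genes between lines and livers held under each alternative run. Between KO and WT liver, where 0 of 10 passed by limma, 1 passed with array weights. Over all genes in that comparison, counts went from 0 to 2 with all 9 arrays in 1 fit, 5744 with array weights and 366 at an adjusted p under 0.10, and from 0 to 1949 when an array was left out (1949 without KO replicate 2, 60 without WT replicate 1). Hgf and Rgs5 turned negative with 75th percentile scaling (-0.16 and -0.045) and repeated quantile normalization (-0.075 and -0.032), and Hgf with array weights (-0.16); 75th percentile scaling moved the median of all genes by -0.16. Leaving out an array gave ranges across 0 for Dcn (-0.28 to 0.11), Hgf (-0.12 to 0.23), Lrat (-0.62 to 0.22), Reln (-0.51 to 0.18), Des (-0.40 to 0.050), Rgs5 (-0.060 to 0.37) and Hand2 (-0.095 to 0.077), none past the threshold. With dim genes left out, 5 of 10 genes were tested against the lines; 4 passed against KO liver and 5 against WT liver. Leaving out an array gave 7 to 9 of 10 against KO liver and 8 to 9 against WT liver. Over all genes it gave 2281 (without KO replicate 1) to 4048 of a full count of 4275 against KO liver, with 2310 without KO replicate 3. Against WT liver it gave 3397 (without WT replicate 2) to 5435 of 5715, with 3556 without WT replicate 3. Requiring at least 2-fold left 2638 and 3492. The replicate block gave 0 of 10 genes between livers, 8 against KO liver (Hand2 lost, adjusted p = 0.0508) and 9 against WT liver. With 3 arrays a group and no detection calls, small differences and low levels are the least certain.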
